A study of Mus musculus with 25 samples.

Results

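Hepatocytes, the epithelial cells that make up most of the liver and secrete most plasma proteins, were compared between mice given an IL-6 plasmid and mice given a GFP plasmid. The comparison used 3 IL-6 plasmid libraries and 2 GFP plasmid libraries, all libraries the labels give for these groups and 5 of the 25 of the series, and every gene of the hepatocyte count table was examined. Mice of both groups were wild type, of the strain labelled C57BL/6J 129SV, and received their plasmid by hydrodynamic tail vein injection, a rapid injection of a large volume that drives DNA into hepatocytes. Their livers were perfused 1 week later and the cells were sorted. The controls therefore also carried an injection and a plasmid, and no uninjected hepatocytes entered the comparison. The labels give neither the promoter of the plasmids nor the age and sex of the mice or the time of day of collection. Nor do they say that each library is a separate animal. The p-values therefore measure the spread between libraries alone, and that spread may be technical.

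IL-6 is a cytokine of inflammation that binds its receptor and the shared subunit gp130, whose attached JAK kinases then phosphorylate the transcription factor STAT3. In the liver this pathway is known for the acute phase response, in which hepatocytes change the set of plasma proteins they secrete. Such proteins enter the endoplasmic reticulum (ER) as they are made, are glycosylated there and leave through the Golgi apparatus. The study names reprogramming of hepatocytes through this pathway as its subject.

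The IL-6 plasmid libraries held 16517750, 18388946 and 18384996 counts and the GFP plasmid libraries 16007378 and 14714513. Across genes the log levels of the IL-6 libraries correlated at r = 0.948 to 0.983 and those of the GFP libraries at r = 0.983, against 0.859 to 0.869 between the groups. No p-value is given for these correlations, since genes are not independent of each other. Of 14339 genes tested, 1964 were higher with the IL-6 plasmid (13.7%) and 1755 were lower (12.2%), by edgeR's quasi-likelihood test with Benjamini-Hochberg adjusted p under 0.05, the rule behind every call here. Levels are CPM, the counts of a gene relative to the scaled library size, and fold changes are log2 values of IL-6 over GFP ± SE. The median log2 fold change of all tested genes was 0.04. The counts rested on both controls: 793 genes were higher and 914 lower without GFP replicate 1, and 755 and 896 without GFP replicate 2. For most gene lists, the counts left without GFP replicate 1 and without GFP replicate 2 are therefore given in brackets, in that order. Counts of 5 or fewer in a list could change by 1 or more genes when a library was left out. With library totals alone as the scaling, 1387 genes were higher and 2661 lower (34.3% of the calls higher, against 52.8%), and the median moved to -0.18.

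Il6 itself, the gene the plasmid carries, checks the groups. It stood at 4.89, 3.21 and 351 CPM with the IL-6 plasmid, against 0 and 0.0688 CPM with the GFP plasmid. IL-6 replicate 3 thus held nearly all reads of Il6, which was called higher (adjusted p = 0.0179) but not when either GFP library was left out (adjusted p up to 0.127). Socs3, which STAT3 switches on and which then damps the pathway, stood at 270.2, 292 and 216 CPM with the IL-6 plasmid, against 11.7 and 12 CPM with the GFP plasmid. Stat3 stood at 339.7, 351 and 424 CPM with the IL-6 plasmid, against 109 and 98.9 CPM with the GFP plasmid. Every IL-6 library thus lay above both controls in Socs3 and Stat3, whether it held much or little Il6 RNA. The count table also has a row for EGFP, which was left out of all library sizes and tests. EGFP reached 9.24, 5.73 and 486.3 CPM in the IL-6 plasmid libraries, against 2.18 and 2.41 CPM in the GFP plasmid libraries. It was therefore not highest in the group named for GFP, and why it was high in IL-6 replicate 3 was not tested.

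IL-6 replicate 3 stood apart from the other IL-6 libraries in further genes. Of 1236 genes whose IL-6 group mean was 100 CPM or more, 108 differed more than 2-fold between replicate 3 and the mean of the other IL-6 libraries, 56 upward and 52 downward, against 55 genes for replicate 1 and 25 for replicate 2. Alb, which encodes serum albumin, stood at 84156, 33886 and 6388 CPM with the IL-6 plasmid, against 54094 and 59016 CPM with the GFP plasmid. In the IL-6 group it thus ranged from above both controls to far below them, and its log2 fold change was -0.45 ± 0.71 (edgeR adjusted p = 0.679). A2m, a broad protease inhibitor, stood at 787, 381 and 12595 CPM over IL-6 replicates 1 to 3, and Saa3, a serum amyloid A protein made in several tissues, at 38.1, 90.7 and 1105 CPM. Both were highest in replicate 3. Saa3 was not called without GFP replicate 1 or 2 (adjusted p up to 0.0736). Scd1, the desaturase of fatty acid synthesis, stood at 678, 283 and 26.5 CPM with the IL-6 plasmid, against 2059 and 2359.6 CPM with the GFP plasmid, so replicate 3 was lowest. Glul, the glutamine synthetase of hepatocytes around the central vein, stood at 53.5, 77.9 and 543 CPM with the IL-6 plasmid, against 382 and 427 CPM with the GFP plasmid, and Retsat, a retinol saturase, at 9.87, 9.43 and 300.4 CPM with the IL-6 plasmid, against 198 and 170.0 CPM with the GFP plasmid. In both genes replicates 1 and 2 lay below the controls and replicate 3 above them, and neither was called with all libraries. Without IL-6 replicate 3, 1811 genes were higher and 1639 lower, Glul fell by 2.62 (adjusted p = 0.000997) and Retsat fell by 4.26 (adjusted p = 0.0133).

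**Figure D1:**
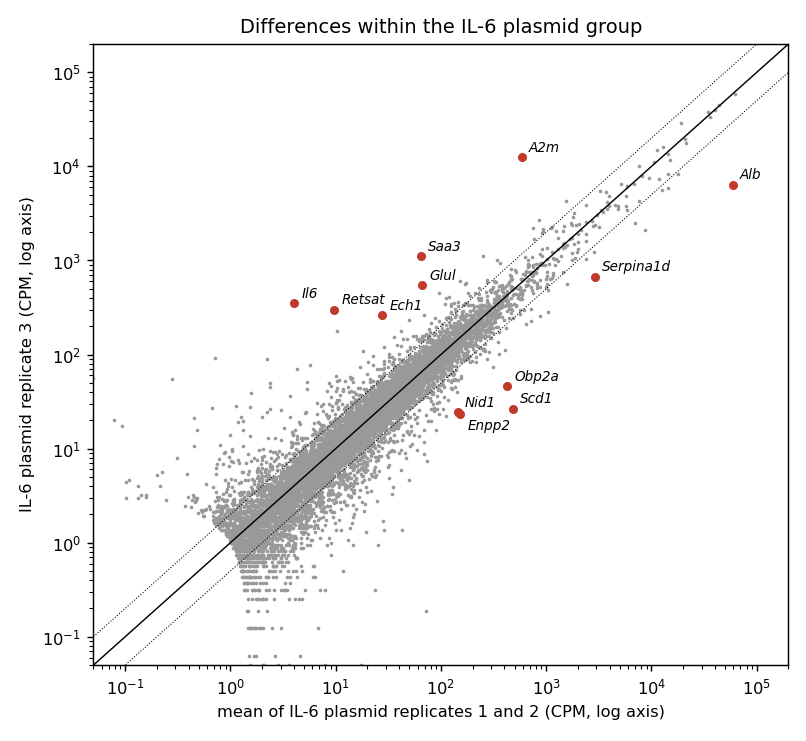
Level of each gene in IL-6 plasmid replicate 3 (CPM, log axis) against the mean of IL-6 plasmid replicates 1 and 2 (CPM, log axis), for genes whose group mean was 1 CPM or more. The solid line marks equal levels and the dotted lines a 2-fold difference. The genes named in red, from Il6 and A2m above to Alb and Scd1 below, lie far outside the dotted lines.

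Hepatocyte markers were present in every library: all 14 on the list had counts, and Hnf4a, a transcription factor that defines hepatocytes, stood at 728, 773 and 853 CPM with the IL-6 plasmid, against 644 and 798 CPM with the GFP plasmid. Summed markers of other liver cells differed between the groups at low levels. The 10 Kupffer cell markers summed to 198.1, 196.5 and 91.1 CPM with the IL-6 plasmid, against 31.2 and 40.4 CPM with the GFP plasmid, and 5 were higher. The 7 tested neutrophil markers summed to 32.9, 17.1 and 2.12 CPM with the IL-6 plasmid, against 0.0640 and 0.206 CPM with the GFP plasmid, and 6 were higher. Of the 7 neutrophil markers, 6 had no count in the controls, and such a gene can only be called higher. In each of these lists no marker was called when either GFP library was left out, and 1 when IL-6 replicate 1 or 2 was. The 10 markers of macrophages and monocytes summed to 204.2, 285.9 and 164.8 CPM with the IL-6 plasmid, against 12.7 and 20.6 CPM with the GFP plasmid. Most of that sum was Cd14, the lipopolysaccharide co-receptor, at 152, 236 and 126 CPM with the IL-6 plasmid, against 0.704 and 0.757 CPM with the GFP plasmid, while the leukocyte marker Ptprc stood at 5.05, 5.3 and 1.81 CPM with the IL-6 plasmid, against 0.576 and 0.482 CPM with the GFP plasmid. Markers of sinusoidal endothelial cells summed to 204.5, 177.3 and 64.6 CPM with the IL-6 plasmid, against 167.5 and 193.9 CPM with the GFP plasmid. Those of stellate cells summed to 123.5, 129.4 and 70.9 CPM with the IL-6 plasmid, against 90.9 and 80.7 CPM with the GFP plasmid. Of 6 tested cholangiocyte markers 4 were higher (3 and 2) and none lower. Of the 6, 2 had no count in the controls and could not be called lower. The 6 summed to 10790, 6922 and 2236 CPM with the IL-6 plasmid, against 29.0 and 20.85 CPM with the GFP plasmid, and most of the sum with the IL-6 plasmid was Spp1. Sox9, a factor of biliary and progenitor cells, stood at 96.1, 87.3 and 88.7 CPM with the IL-6 plasmid, against 3.01 and 2.13 CPM with the GFP plasmid. Epcam, a surface marker of bile ducts, had 23, 13 and 27 counts over IL-6 replicates 1 to 3 and none in the controls, and Krt7, a bile duct keratin too low to be tested, had 0, 2 and 0 counts and none in the controls. The part of these other cells in the results was not tested. In bulk samples, more cells of a type and more RNA per cell cannot be told apart.

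Transcripts of a small set of secreted proteins took up a large part of the counts. The 15 called genes with the largest gain in CPM held 29.6%, 30.4% and 31.2% of all counts with the IL-6 plasmid, against 4.0% and 3.56% with the GFP plasmid. In order of gain they were Hpx, Hp, Fga, Fgb, C3, Itih4, Fgg, Pzp, Saa1, Itih3, Saa2, Kng1, Fn1, Ambp and Orm1, and each of them encodes a secreted protein. The counts of an IL-6 library were accordingly held by fewer genes. The most abundant genes that together hold 50% of the counts numbered 38, 58 and 66 in the IL-6 libraries, against 194 and 203 in the GFP libraries. The top 10 genes held 30.7%, 27.4% and 27.3% with the IL-6 plasmid, against 17.0% in both libraries with the GFP plasmid.

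**Figure D2:**
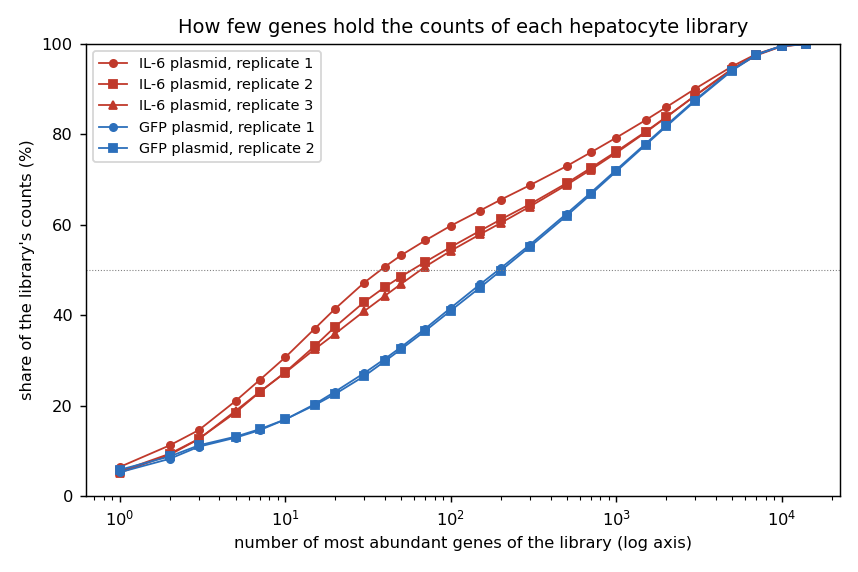
Share of a library's counts (%) held by its most abundant genes, against the number of genes (log axis), with 1 line per library. The 3 IL-6 plasmid lines run above the 2 GFP plasmid lines, and cross the dotted 50% line at 38, 58 and 66 genes, against 194 and 203.

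Hpx (ENSMUSG00000030895, chromosome 7, 105591613 to 105600137, reverse strand, GRCm38) encodes haemopexin, which binds free haem. It stood at 62155, 61826 and 59362 CPM with the IL-6 plasmid, against 3327 and 3406 CPM with the GFP plasmid, and became the most abundant transcript of IL-6 replicates 2 and 3. The haemoglobin-binding haptoglobin, Hp, stood at 44068, 44321 and 45308 CPM with the IL-6 plasmid, against 1946 and 1916 CPM with the GFP plasmid. The fibrinogen chains moved together, Fga at 43456, 37418 and 40128 CPM with the IL-6 plasmid, against 4576 and 3777 CPM with the GFP plasmid, and Fgb and Fgg by 3.16 ± 0.34 and 3.16 ± 0.40 beside 3.27 ± 0.40 for Fga (edgeR adjusted p = 0.000205 or less). Among inter-alpha-trypsin inhibitor chains, which bind hyaluronan, Itih4 rose by 3.62 ± 0.46 and Itih3 by 3.80 ± 0.34. Saa2, a serum amyloid A apolipoprotein, had the widest change of the 15, at 10104, 12319.7 and 15103 CPM with the IL-6 plasmid, against 4.16 and 10.3 CPM with the GFP plasmid (edgeR log2 fold change 10.76 ± 1.85, adjusted p = 0.00152). Its neighbour Saa1 stood at 11912, 13905 and 16146 CPM with the IL-6 plasmid, against 31.9 and 72 CPM with the GFP plasmid, and reads of this near-identical pair may have been split between them in counting. No library of either group overlapped the other in any of these genes. Kng1, the precursor of bradykinin, and Ambp, the precursor of alpha-1-microglobulin, were uneven within the IL-6 group, at 17902, 11026 and 5885 CPM and at 16087, 12707 and 8383 CPM, lowest in replicate 3.

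The promoters below belong to a feedback gene of the pathway (Socs3), to leading secreted proteins (Fga, Fgb and Hpx), to a metalloreductase that rose (Steap4) and to a gene that fell (Rdh16), with a STAT motif in capitals where the window holds it. They run 5′ to 3′ on the gene's strand, from 250 bases before to 50 after the first listed start, and come from RefSeq on GRCm38.p6. The motif searched was TTCNNNGAA on either strand, with TTCCNGGAA as a stricter form inside it. Of the 10630 tested genes with a promoter in the table, 7.07% held the looser form and 1.31% the stricter one.
Socs3, chr11:117969317-117969616, reverse strand: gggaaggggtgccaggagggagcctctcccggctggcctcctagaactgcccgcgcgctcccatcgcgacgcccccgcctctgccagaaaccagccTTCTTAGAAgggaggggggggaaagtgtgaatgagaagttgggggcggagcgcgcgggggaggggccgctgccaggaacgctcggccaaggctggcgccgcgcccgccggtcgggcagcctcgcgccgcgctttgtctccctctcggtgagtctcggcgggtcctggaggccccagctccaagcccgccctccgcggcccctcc
Fga, chr3:83025903-83026202, forward strand: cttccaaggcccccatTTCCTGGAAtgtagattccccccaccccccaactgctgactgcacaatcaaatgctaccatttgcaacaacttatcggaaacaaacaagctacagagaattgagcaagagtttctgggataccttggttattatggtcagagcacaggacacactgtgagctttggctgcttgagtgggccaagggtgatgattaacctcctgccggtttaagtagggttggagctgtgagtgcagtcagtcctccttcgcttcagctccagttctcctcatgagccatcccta
Fgb, chr3:83049814-83050113, reverse strand: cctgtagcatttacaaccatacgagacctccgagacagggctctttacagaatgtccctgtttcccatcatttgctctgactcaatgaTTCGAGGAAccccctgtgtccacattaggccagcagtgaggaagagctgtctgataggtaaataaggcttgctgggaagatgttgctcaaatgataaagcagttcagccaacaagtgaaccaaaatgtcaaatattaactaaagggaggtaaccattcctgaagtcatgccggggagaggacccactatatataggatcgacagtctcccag
Steap4, chr5:7960222-7960521, forward strand: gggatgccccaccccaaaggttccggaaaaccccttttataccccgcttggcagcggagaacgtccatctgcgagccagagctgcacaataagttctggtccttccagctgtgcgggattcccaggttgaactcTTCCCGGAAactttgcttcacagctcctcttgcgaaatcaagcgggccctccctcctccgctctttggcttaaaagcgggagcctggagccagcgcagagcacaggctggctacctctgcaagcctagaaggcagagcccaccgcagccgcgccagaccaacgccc
Hpx, chr7:105600067-105600366, reverse strand: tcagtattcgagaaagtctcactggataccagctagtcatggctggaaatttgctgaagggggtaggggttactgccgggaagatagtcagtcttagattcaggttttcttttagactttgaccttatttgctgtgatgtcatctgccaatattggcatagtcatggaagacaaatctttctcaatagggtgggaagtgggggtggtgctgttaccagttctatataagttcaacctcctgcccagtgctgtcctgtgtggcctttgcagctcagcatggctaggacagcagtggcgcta
Rdh16, chr10:127800903-127801202, forward strand: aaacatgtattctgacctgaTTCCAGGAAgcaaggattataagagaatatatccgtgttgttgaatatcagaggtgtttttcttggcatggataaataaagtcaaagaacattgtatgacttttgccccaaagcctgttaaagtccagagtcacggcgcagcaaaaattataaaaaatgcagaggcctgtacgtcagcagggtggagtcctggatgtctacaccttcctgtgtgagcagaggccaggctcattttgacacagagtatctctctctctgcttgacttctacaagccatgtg
In these windows Fga and Steap4 held the stricter form, Fgb and Socs3 the looser one, and Hpx neither. The Socs3 window lies wholly inside the gene as annotated, which on the reverse strand begins at 117970047. The bases before that start were not searched, so the window does not show which form the Socs3 promoter holds there. Rdh16, a retinol dehydrogenase, also held the stricter form and fell, to 10.4, 4.69 and 25.3 CPM with the IL-6 plasmid, against 110.4 and 115 CPM with the GFP plasmid (-3.06 ± 0.54, edgeR adjusted p = 0.0018). A match is only a run of letters in this window. Promoters were found for fewer than 80% of the tested genes, so shares of genes that rose and fell were not compared. The promoters shown are single examples and do not show that the motif is more common among genes that rose.

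Genes nearly silent in the controls made up a second set. Of the genes called higher, 164 had no count in either GFP library, and 45 had a mean under 1 CPM with the GFP plasmid and at least 20 CPM with the IL-6 plasmid. A gene with no count in the GFP libraries was tested only through its counts in other groups, and it could only be called higher. Reg3b (chromosome 6, 78370657 to 78373466, forward strand) and Reg3g, lectins secreted by the gut that kill bacteria, stood at 1964, 1695 and 3218 CPM (Reg3b) and 754, 775 and 1693 CPM (Reg3g) with the IL-6 plasmid. The GFP libraries together held 1 count of Reg3b and 0 of Reg3g. Spp1, the secreted phosphoprotein osteopontin, stood at 10654, 6805 and 2114 CPM with the IL-6 plasmid, against 1.66 and 3.44 CPM with the GFP plasmid. Slpi, a protease inhibitor of mucous surfaces, stood at 49.7, 98.6 and 7.42 CPM with the IL-6 plasmid and had no count in the controls. Replicate 3 was the lowest IL-6 library in both genes and still lay above the controls. Lcn2, which binds bacterial iron carriers, stood at 3951, 3042 and 3241 CPM with the IL-6 plasmid, against 1.79 and 14 CPM with the GFP plasmid. Gucy2c, the intestinal receptor guanylate cyclase C, stood at 59.9, 74.2 and 62 CPM with the IL-6 plasmid, against 0.768 and 0.344 CPM with the GFP plasmid, and was among the 3 genes with the smallest adjusted p of the comparison (6.85 ± 0.42, edgeR adjusted p = 4.52e-06).

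More evenly raised across the IL-6 libraries were 3 genes with no count in either GFP library, for which only a lower bound can be given, set against 3 counts over that group. Rtn4rl2, a receptor of the Nogo family in neurons, stood at 64.1, 95.6 and 81.3 CPM and was at least 820.4-fold higher. Chl1, a neural cell adhesion molecule, stood at 23.2, 35.1 and 33.8 CPM and was at least 315-fold higher. Eps8l1, an actin regulator, stood at 58.6, 68.3 and 37.1 CPM and was at least 547-fold higher. Intervals and bounds of this kind cover counting error only.

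The list named for liver identity factors also holds genes of other kinds, such as Alb and Gpc3. Of its 30 tested members 7 were higher (23.3%) and 4 lower (13.3%), against 13.7% and 12.2% of all genes. Gpc3, a cell surface proteoglycan of fetal liver and liver cancer, stood at 152, 89.2 and 62.6 CPM with the IL-6 plasmid, against 0.064 and 0 CPM with the GFP plasmid, where it had 1 count in all, a ratio of 2938 (527 to 116100), with the 95% counting interval in brackets. The imprinted neighbours H19, a noncoding RNA, and Igf2, a fetal growth factor, stood at 9.79, 11.9 and 17.3 CPM with the IL-6 plasmid, against 0 and 0.344 CPM with the GFP plasmid, and at 15.8, 12.6 and 13.9 CPM with the IL-6 plasmid, against 0.192 and 0.206 CPM with the GFP plasmid. They rose by 6.22 ± 1.44 and 6.09 ± 1.18 (edgeR adjusted p = 0.00818 and 0.00305). Afp, the fetal counterpart of albumin, rose less, at 17.3, 13.7 and 18.7 CPM with the IL-6 plasmid, against 7.23 and 3.51 CPM with the GFP plasmid (1.62 ± 0.34, adjusted p = 0.00482). H19 was not called without GFP replicate 1 (adjusted p = 0.0796), nor Afp without GFP replicate 2 (adjusted p = 0.0633). Gata6, a factor of early endoderm, rose by 2.26 ± 0.35, while Cebpa, which drives the mature hepatocyte program, fell by 1.61 ± 0.33 to 117, 192 and 191 CPM with the IL-6 plasmid, against 482 and 535 CPM with the GFP plasmid. Hnf4a was not called, at 0.12 ± 0.33 with a 95% interval of -0.60 to 0.84.

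**Figure D3:**
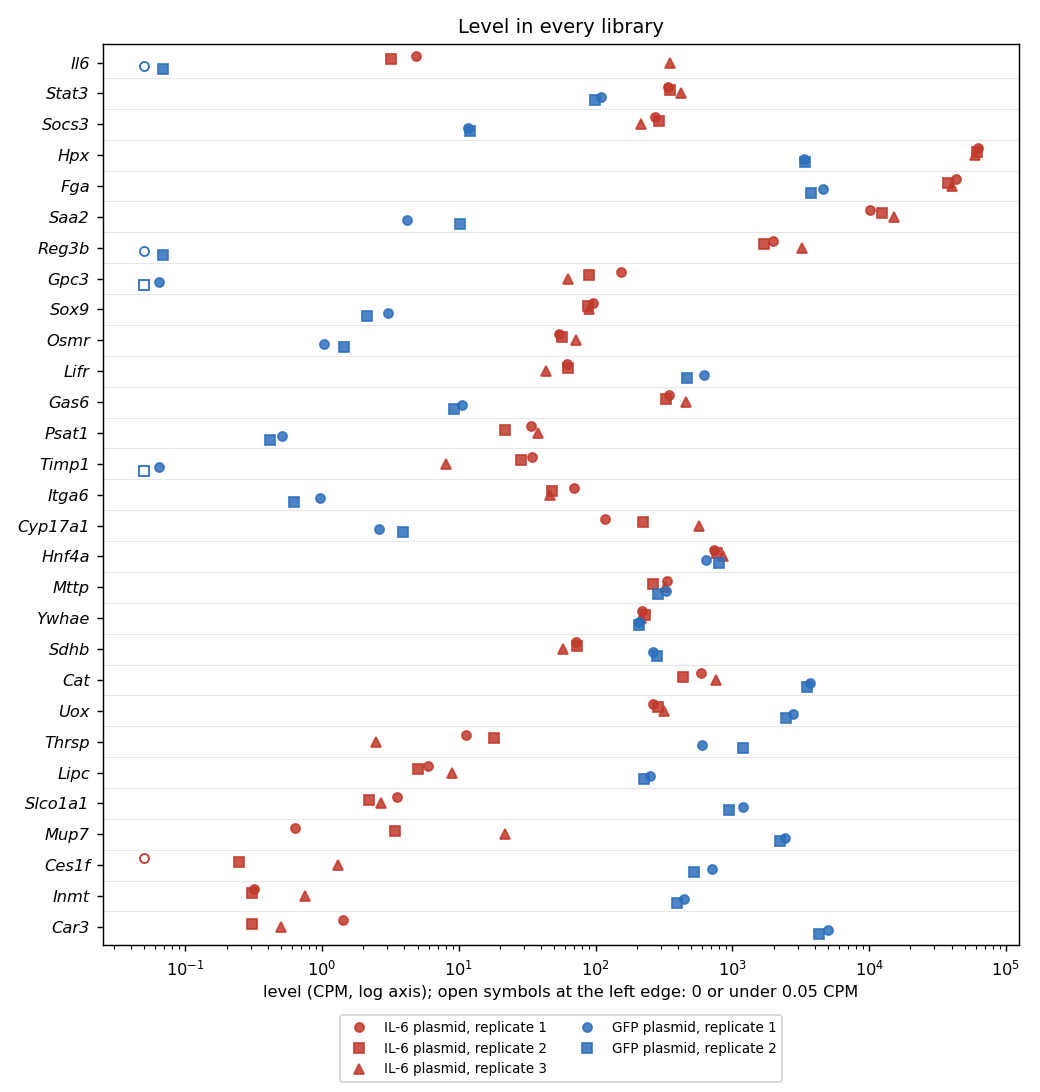
Level (CPM, log axis) of 29 genes named in the text in each library, with red symbols for the IL-6 plasmid libraries, blue symbols for the GFP plasmid libraries and open symbols for values under 0.05 CPM. The groups overlap in Hnf4a and Mttp and lie close together in Ywhae, and Il6 replicate 3 lies far above the other IL-6 libraries.

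Some genes that carry proteins into and through the secretory pathway rose. Of 36 genes for entry into the ER and signal peptide processing, 10 were higher and none lower (0 and 0, 3 and 4 without IL-6 replicates 1 and 2, and 2 with library totals alone), with a median of 0.54. Sec61a1, the channel through which proteins enter, stood at 385, 314 and 309.6 CPM with the IL-6 plasmid, against 168 and 156 CPM with the GFP plasmid (1.05 ± 0.24, edgeR adjusted p = 0.00726). The oligosaccharide transferase subunits Rpn1 and Stt3a, which attach the first sugars, rose by 0.82 ± 0.23 and 0.82 ± 0.20. Every IL-6 library lay above both controls in these 3 genes, but none of the 3 was called without GFP replicate 1 or 2 (adjusted p up to 0.205), nor Rpn1 without IL-6 replicate 1 (adjusted p = 0.0662). Of 57 enzymes of N-glycans and sialic acid, 19 were higher (7 and 8) and 1 lower, among them St3gal1, which caps glycans with sialic acid, by 1.81 ± 0.27 (11 with library totals alone). Of 48 ER chaperones and disulfide enzymes, 13 were higher (5 and 3) and 2 lower. Dnajc10, a reductase of misfolded proteins, rose by 2.02 ± 0.32, while Herpud1, a part of ER-associated degradation, fell by 2.04 ± 0.46 to 170.3, 134 and 160.5 CPM with the IL-6 plasmid, against 603 and 672 CPM with the GFP plasmid. Hspa5, the main ER chaperone, was not called (0.86 ± 0.32, adjusted p = 0.067), though DESeq2 called it higher (adjusted p = 0.0209). Traffic from ER to Golgi had 8 of 54 higher (1 and 1, 5 without IL-6 replicate 1 or 2, and 4 with library totals alone) and 2 lower, a share near that of all genes.

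Few genes of ribosomes and none of the proteasome were called. Of 83 cytosolic ribosomal proteins none was higher and 2 were lower (0 and 0, and 0 without IL-6 replicate 3), Rpl35a and the p53-responsive Rps27l, with a median of 0.13 and all members between -0.78 and 0.85. Of 48 proteasome genes none was called, with a median of -0.05 and a range of -0.79 to 0.93. With library totals alone 6 proteasome genes were lower. Ribosome biogenesis factors had 8 of 47 higher (2 and 2, and 2 with library totals alone) and 1 lower. Their share higher was 17%, against 13.7% of all genes. The enzymes that charge transfer RNAs had 8 of 20 higher (3 and 2, and 4 with library totals alone) and 1 lower. The leading synthetase, Wars, stood at 60.1, 75.2 and 92.2 CPM with the IL-6 plasmid, against 16.1 and 18 CPM with the GFP plasmid (2.15 ± 0.20, edgeR adjusted p = 4.03e-05).

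Most nuclear genes of mitochondrial respiration fell. Of 79 nuclear genes of the respiratory chain and ATP synthase, 61 were lower and none higher (39 and 32 lower), with a median of -1.02 and a range of -3.13 to -0.24. Sdhb and Sdha, the iron-sulfur and flavin subunits of succinate dehydrogenase, led the called members. Sdhb stood at 71.7, 72.6 and 57.8 CPM with the IL-6 plasmid, against 263 and 283 CPM with the GFP plasmid (-2.02 ± 0.21, edgeR adjusted p = 7.19e-05) and Sdha at 258, 235 and 199 CPM with the IL-6 plasmid, against 678 and 662 CPM with the GFP plasmid (-1.54 ± 0.23). No IL-6 library reached a control in either. The complex I subunit Ndufb10 fell by 1.48 ± 0.27. Of 12 genes read from the mitochondrial genome itself, 3 were lower, none of them when either GFP library or IL-6 replicate 1 or 2 was left out, and their median was -0.93. Mitochondrial transcripts took 2.33%, 2.05% and 2.76% of all counts in the IL-6 libraries, against 5.56% and 5.6% in the GFP libraries. Proteins of the mitochondrial ribosome, which makes the few proteins encoded there, had 19 of 77 lower (4 and 5, and 11 or 12 without an IL-6 library) and 2 higher. By library totals alone 38 were lower. With mitochondrial genes left out of the fit, 1962 genes were higher and 1754 lower.

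Peroxisomes, which break down long and branched fatty acids and hydrogen peroxide, followed the same direction: 26 of 50 genes were lower and none higher (17 and 15 lower), with a median of -0.92. Cat, the catalase that decomposes hydrogen peroxide, stood at 588, 438 and 759 CPM with the IL-6 plasmid, against 3661 and 3483 CPM with the GFP plasmid (-2.59 ± 0.32, edgeR adjusted p = 0.000177). Uox, the urate oxidase, stood at 264, 285 and 317 CPM with the IL-6 plasmid, against 2755 and 2476 CPM with the GFP plasmid, and Phyh, which starts the breakdown of phytanic acid, at 273, 319 and 486 CPM with the IL-6 plasmid, against 1688 and 1792 CPM with the GFP plasmid. Acaa1b, a thiolase that is a known PPARα target in mice, fell furthest of those called, to 23.4, 17.3 and 83.2 CPM with the IL-6 plasmid, against 815 and 686 CPM with the GFP plasmid, highest in replicate 3. Autophagy genes had 7 of 36 lower and 1 higher (14 lower with library totals alone, 11 without IL-6 replicate 3), led by Gabarapl1 (-2.53 ± 0.32) and the mitophagy receptor Bnip3 (-2.23 ± 0.33). Lysosomal hydrolases went the other way, with 10 of 48 higher (4 and 4, 5 without IL-6 replicate 1, and 5 with library totals alone) and none lower. Ctsc, the dipeptidyl peptidase that activates serine proteases of granulocytes, stood at 796, 740.2 and 611 CPM with the IL-6 plasmid, against 51.3 and 37.4 CPM with the GFP plasmid, and Lgmn, an asparaginyl endopeptidase, at 379, 316 and 356 CPM with the IL-6 plasmid, against 35.6 and 37 CPM with the GFP plasmid. Both proteases are also abundant in leukocytes, some of whose markers rose as given above, and the part of those cells in this list was not tested.

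**Figure D4:**
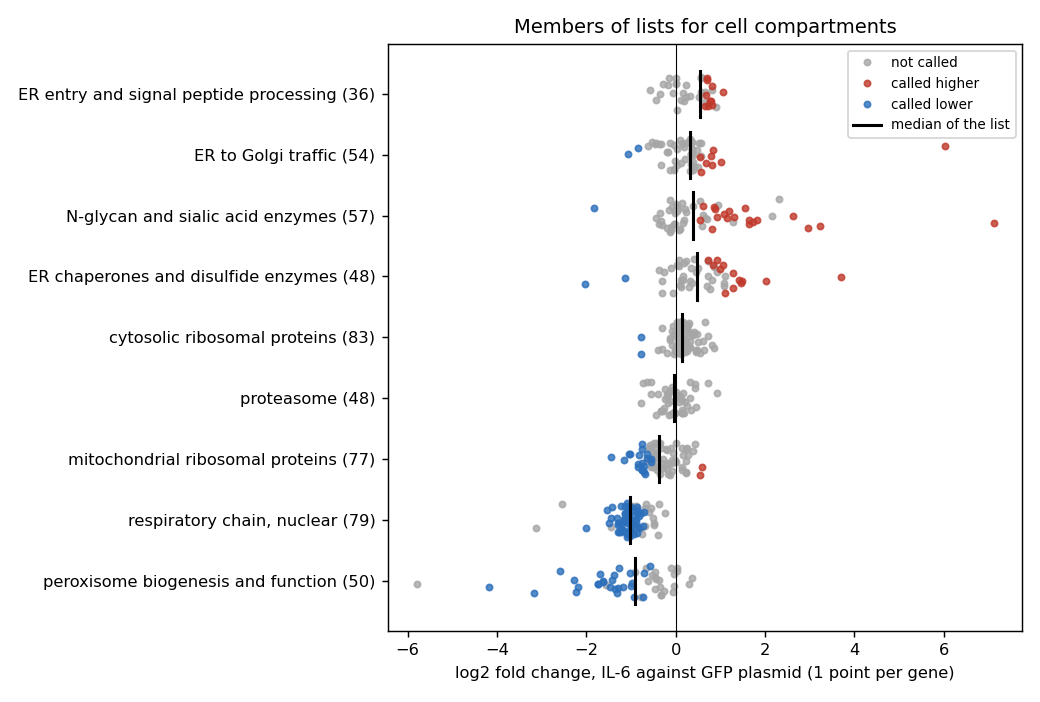
Log2 fold change of each tested member of 9 lists, IL-6 over GFP plasmid, with called genes in colour, other genes in grey, the number of members in brackets and a black line at each median. The nuclear respiratory chain lies around -1.02 with every member below 0, and the proteasome and the cytosolic ribosome lie around 0. The lists of the secretory pathway have medians from 0.32 to 0.54, with members on both sides of 0.

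Fewer counts went to many abundant transcripts of the controls. The 15 called genes with the largest loss in CPM held 3.33%, 2.98% and 2.94% of all counts with the IL-6 plasmid, against 12.7% and 11.9% with the GFP plasmid. They were mt-Co1, Apoe, Mup3, Cyp2e1, Apoa2, Cps1, Car3, Ttr, Cyp3a11, Scp2, Ass1, Cat, Rbp4, Ces1c and Gnmt. Ttr and Rbp4, which carry thyroid hormone and retinol in plasma, stood at 2184, 1309 and 1011 CPM with the IL-6 plasmid, against 6250.0 and 5852 CPM with the GFP plasmid, and at 1292, 749 and 567 CPM with the IL-6 plasmid, against 3602 and 3801 CPM with the GFP plasmid. Of the urea cycle enzymes, Cps1 fell by 2.51 ± 0.49 and Ass1 fell by 2.11 ± 0.34, and Gnmt, which uses up methyl groups from S-adenosylmethionine, fell by 2.53 ± 0.37 (edgeR adjusted p = 0.00314 or less for these 3). Apoe fell by 1.34 ± 0.42 (adjusted p = 0.034) and mt-Co1 fell by 1.09 ± 0.35 (adjusted p = 0.0383). Neither was called without either GFP library, without IL-6 replicate 2 or without IL-6 replicate 3, nor mt-Co1 without IL-6 replicate 1. Their adjusted p then ranged up to 0.164.

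Some of these genes were all but silenced: 24 genes called lower had no count in any IL-6 library, and 23 had a mean under 1 CPM with the IL-6 plasmid and at least 20 CPM with the GFP plasmid. A gene with no count in the IL-6 libraries could likewise only be called lower. Car3 (ENSMUSG00000027559, chromosome 3, 14863512 to 14872523, forward strand), a carbonic anhydrase of fat, muscle and male liver, stood at 1.42, 0.308 and 0.499 CPM with the IL-6 plasmid, against 5006 and 4329 CPM with the GFP plasmid. Inmt, a methyltransferase of indoles, stood at 0.316, 0.308 and 0.749 CPM with the IL-6 plasmid, against 439 and 390.2 CPM with the GFP plasmid, and Slc22a28, an organic anion transporter of rodents, had 1 count in the IL-6 group against 37.1 and 19 CPM in the controls, a ratio of GFP over IL-6 of 1274 (228 to 50360). Etnppl, which breaks down phosphoethanolamine, fell to 0.316, 0 and 3.18 CPM with the IL-6 plasmid, against 248 and 265 CPM with the GFP plasmid. Upp2, a uridine phosphorylase of liver, stood at 2.21, 2.22 and 2.43 CPM with the IL-6 plasmid, against 668 and 1109 CPM with the GFP plasmid. No IL-6 library came near a control in these genes.

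Many genes known to depend on sex and on growth hormone fell. Of 27 major urinary and odorant-binding proteins, pheromone carriers made in male liver, 20 were lower (19 and 18) and 2 higher, with a median of -6.91. For 8 members with no count in a group only a bound can be given, and with these at their bound the median was -5.91. Mup7 stood at 0.632, 3.39 and 21.9 CPM with the IL-6 plasmid, against 2442 and 2244 CPM with the GFP plasmid, and Mup3 at 936, 1357 and 2295 CPM with the IL-6 plasmid, against 11165 and 8555 CPM with the GFP plasmid. Reads of this family are hard to assign between near-identical members, so single values are uncertain. The 2 that rose were not urinary proteins but Lcn2 and Obp2a, an odorant-binding protein, at 538, 317 and 46.2 CPM with the IL-6 plasmid, against 9.03 and 5.92 CPM with the GFP plasmid. Obp2a was not called when either GFP library was left out (adjusted p up to 0.0649). Of 53 growth hormone, IGF and sex-biased genes, 19 were lower (11 without GFP replicate 1) and 4 higher. The male-biased steroid enzyme Hsd3b5 and the importer Slco1a1 stood at 0.237, 0.123 and 0.624 CPM with the IL-6 plasmid, against 325 and 151 CPM with the GFP plasmid, and at 3.55, 2.22 and 2.68 CPM with the IL-6 plasmid, against 1199 and 951 CPM with the GFP plasmid. The female-biased Cyp2a4 fell as well, by 4.89 ± 1.07, whereas Sult1e1, the oestrogen sulfotransferase, rose to 65.8, 61.2 and 68.1 CPM with the IL-6 plasmid, against 0.256 and 0.55 CPM with the GFP plasmid, and the steroid hydroxylase Cyp17a1 to 117, 220.4 and 567 CPM with the IL-6 plasmid, against 2.62 and 3.92 CPM with the GFP plasmid. Sult1e1 was not called without GFP replicate 1 (adjusted p = 0.0999) or 2 (adjusted p = 0.082). Ghr, the growth hormone receptor, fell by 2.83 ± 0.35 to 139, 104 and 207 CPM with the IL-6 plasmid, against 1131 and 1001 CPM with the GFP plasmid, and Igf1, its main target, fell by 0.80 ± 0.25 (edgeR adjusted p = 0.034). Igf1 was not called without either GFP library or without IL-6 replicate 1 or 2 (adjusted p up to 0.164). The sex of the mice of each library is not given in the labels, so a difference in sex between groups cannot be told apart from these changes.

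Enzymes and transporters for drugs, steroids and lipids were often lower. Of 22 carboxylesterases and related hydrolases, which cleave esters of drugs and lipids, 15 were lower (14 and 14) and 1 higher, with a median of -2.44. Ces1f stood at 0, 0.247 and 1.31 CPM with the IL-6 plasmid, against 708 and 525 CPM with the GFP plasmid, and Ces1g, a lipase acting on triglyceride, at 3.16, 1.29 and 2.68 CPM with the IL-6 plasmid, against 207 and 185 CPM with the GFP plasmid. Pon1, the paraoxonase carried on high density lipoprotein, stood at 45.7, 29.8 and 70.6 CPM with the IL-6 plasmid, against 837 and 837 CPM with the GFP plasmid. The Ces1 genes lie in a cluster of close relatives, so reads may have been split among them. Of 73 sulfotransferases, aldo-keto reductases and aldehyde enzymes, 33 were lower (24 and 27) and 7 higher (3 and 3). Hsd11b1, which regenerates active glucocorticoid, fell by 4.53 ± 0.57 (edgeR adjusted p = 0.000219). Of 68 solute carriers of hepatocytes, 27 were lower (14 and 13, and 16 without IL-6 replicate 2) and 7 higher (4 and 4). Slc47a1, which exports organic cations into bile, stood at 12.2, 13.5 and 17.5 CPM with the IL-6 plasmid, against 120.4 and 164 CPM with the GFP plasmid. In contrast Slc13a5, the citrate importer, rose to 134, 170.2 and 612 CPM with the IL-6 plasmid, against 1.86 and 2.27 CPM with the GFP plasmid, and Slc41a2, a magnesium transporter, by 4.11 ± 0.60.

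In lipid transport, 16 of 49 apolipoprotein and plasma lipid genes were lower (13 and 12) and 5 higher (1 and 1). Hepatic lipase, Lipc, which remodels lipoproteins in the sinusoid, stood at 5.92, 4.99 and 8.86 CPM with the IL-6 plasmid, against 248 and 227 CPM with the GFP plasmid (-5.17 ± 0.34, edgeR adjusted p = 5.88e-06). The related endothelial lipase, Lipg, fell by 6.17 ± 0.79. The fatty acid importer Cd36 rose by 3.11 ± 0.63, though it was not called without GFP replicate 1 (adjusted p = 0.0526). Thrsp, a regulator of fatty acid synthesis, stood at 11.2, 18 and 2.5 CPM with the IL-6 plasmid, against 603 and 1185 CPM with the GFP plasmid. Lpin1, a phosphatidate phosphatase, stood at 42.9, 42.9 and 31.9 CPM with the IL-6 plasmid, against 190.4 and 1557 CPM with the GFP plasmid, so its controls themselves lay far apart, and it was not called without GFP replicate 2 (adjusted p = 0.114). Serpina6, the carrier of glucocorticoids in plasma, fell by 4.53 ± 0.47.

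Some genes from both ends of the liver lobule were lower. Around the central vein, 11 of 36 Wnt pathway and pericentral genes were lower (30.6%, against 12.2% of all genes). The 4 that were higher made up 11.1%, against 13.7% of all genes. Cyp1a2 stood at 49.7, 46.3 and 15.3 CPM with the IL-6 plasmid, against 1082 and 924 CPM with the GFP plasmid, and Oat, the ornithine aminotransferase, at 40.7, 58.3 and 232 CPM with the IL-6 plasmid, against 1120.3 and 1081 CPM with the GFP plasmid. Around the portal vein, 13 of 30 genes were lower (7 and 8, and 8 without IL-6 replicate 1) and 3 higher, with Cyp2f2 at 41.8, 34.1 and 37.7 CPM with the IL-6 plasmid, against 955 and 898 CPM with the GFP plasmid, and Gls2, a glutaminase, with a log2 fold change of -2.45 ± 0.46. Every IL-6 library lay below the controls in these 4 genes. Of the genes around the portal vein 43.3% were lower and 10% higher, against 12.2% and 13.7% of all genes. Notum, a Wnt antagonist and target, fell by 3.51 ± 0.49.

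Receptors for cytokines of the IL-6 family changed in opposite directions. Of 37 receptor and JAK-STAT genes, 12 were higher (10 and 9) and 2 lower. Osmr, the oncostatin M receptor, stood at 54, 57.1 and 71.6 CPM with the IL-6 plasmid, against 1.02 and 1.44 CPM with the GFP plasmid (5.62 ± 0.57, edgeR adjusted p = 6e-05), and Lifr, the receptor of leukaemia inhibitory factor that pairs with the same gp130 subunit, at 61.3, 62.3 and 43.7 CPM with the IL-6 plasmid, against 623 and 468 CPM with the GFP plasmid (-3.29 ± 0.33, adjusted p = 5.75e-05). The groups were thus far apart in both genes and in opposite directions. Lepr, the leptin receptor, rose to 13.3, 20.8 and 73.2 CPM with the IL-6 plasmid, against 0.192 and 0.688 CPM with the GFP plasmid, and Jak3, a kinase known from lymphocytes, to 54.2, 52.6 and 43.8 CPM with the IL-6 plasmid, against 4.42 and 11.8 CPM with the GFP plasmid.

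Genes of NF-kB signalling, the other main pathway of the acute phase, rose in number: 16 of 29 were higher (11 and 12) and 1 lower. Ier3, an early response gene that acts on survival, stood at 115, 92.3 and 53.2 CPM with the IL-6 plasmid, against 0.384 and 0.482 CPM with the GFP plasmid, and Icam1, the adhesion molecule for leukocytes, at 53.8, 62.4 and 76.9 CPM with the IL-6 plasmid, against 6.85 and 3.92 CPM with the GFP plasmid. The subunits Relb and Nfkb2 rose by 4.64 ± 0.60 and 2.84 ± 0.35, and the inhibitors Nfkbie and Irak3 by 3.36 ± 0.55 and 4.27 ± 0.54 (edgeR adjusted p = 0.00119 or less for these 4). Both activating and inhibiting members were therefore among those higher.

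Among transcription factors of epithelial state, 10 of 42 KLF, SOX, ETS and SNAI members were higher (5 without GFP replicate 1) and 1 lower. Elf3, an ETS factor of epithelia, stood at 17.9, 11.5 and 10.1 CPM with the IL-6 plasmid and had 2 counts in the controls, a ratio of 193 (53.2 to 1598). Klf4 stood at 10.8, 8.57 and 10.5 CPM with the IL-6 plasmid, against 0.704 and 0.757 CPM with the GFP plasmid, and Klf6 and Ets2 rose by 1.96 ± 0.34 and 2.02 ± 0.36, while Klf15, a factor of fasting metabolism, fell by 1.89 ± 0.31. Among bZIP factors 5 of 37 were higher (13.5%) and 6 lower (16.2%), near the shares of all genes, with Fosl2 up by 1.91 ± 0.29. Of 39 metabolic nuclear receptors and coregulators, none was higher and 12 were lower (6 and 5). Ppara, the receptor that drives fatty acid oxidation, fell by 1.78 ± 0.46, Nr1i3, the xenobiotic receptor CAR, fell by 2.37 ± 0.42, and Mlxipl, the carbohydrate-responsive factor ChREBP, fell by 1.95 ± 0.34. The coactivator Ppargc1b stood at 0.947, 1.23 and 2.56 CPM with the IL-6 plasmid, against 15.9 and 15.3 CPM with the GFP plasmid. Ppara was not called without either GFP library (adjusted p up to 0.081) or without IL-6 replicate 1 (adjusted p = 0.0507).

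Genes of the circadian clock differed between the groups in both directions. Of 22 members 10 were lower (7 and 7) and 3 higher (1 and 0). Arntl, which encodes the activator BMAL1, stood at 20.1, 13.4 and 10.9 CPM with the IL-6 plasmid, against 3.2 and 1.51 CPM with the GFP plasmid, and its partner Npas2 rose by 4.41 ± 1.06. The genes that this activator switches on fell: Dbp to 4.97, 9.74 and 2.25 CPM with the IL-6 plasmid, against 96.7 and 112 CPM with the GFP plasmid, while Per3 fell by 2.66 ± 0.37, Tef fell by 2.21 ± 0.28 and Nr1d1 fell by 1.93 ± 0.27 (edgeR adjusted p = 0.000419 or less for these 4). Ciart, a further output, stood at 1.66, 2.53 and 3.24 CPM with the IL-6 plasmid, against 19.9 and 72.9 CPM with the GFP plasmid, so the controls were themselves uneven. Arntl was not called without GFP replicate 2 (adjusted p = 0.0551), nor Npas2 without either GFP library (adjusted p up to 0.0987). The labels do not give the time of day at which each library was collected, so time of day and plasmid cannot be told apart for these genes.

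Genes of amino acid synthesis and uptake changed in both directions. Of 34 genes of the ATF4 response and amino acid synthesis, 15 were higher (8 and 8) and 3 lower, with a median of 1.68, the third highest of the lists in the plot of list shares. The summed level of the list was nevertheless lower, at 4196, 3418 and 3581 CPM with the IL-6 plasmid, against 7092 and 7047 CPM with the GFP plasmid. Psat1, of serine synthesis, stood at 33.6, 21.6 and 38 CPM with the IL-6 plasmid, against 0.512 and 0.413 CPM with the GFP plasmid, and Aldh18a1, of proline synthesis, at 15.5, 14.8 and 21.2 CPM with the IL-6 plasmid, against 0.064 and 0.206 CPM with the GFP plasmid. The amino acid transporters Slc38a1 and Slc1a4 rose by 6.09 ± 0.70 and 3.33 ± 0.55 (edgeR adjusted p = 0.00123 or less). Fgf21, a hormone secreted by stressed liver, rose by 4.16 ± 1.15. Its call was lost without GFP replicate 1 (4.11, adjusted p = 0.132) or 2 (4.21, adjusted p = 0.121), at a similar fold change. Of 37 glycolytic and pentose phosphate genes, 8 were higher (5 and 3, and 5 without IL-6 replicate 3) and 4 lower. The share lower in this list, 10.8%, was near the 12.2% of all genes. Pklr, the liver form of pyruvate kinase, fell by 2.16 ± 0.28, whereas Pgd, of the pentose phosphate pathway, rose to 107, 118 and 147 CPM with the IL-6 plasmid, against 36 and 31.8 CPM with the GFP plasmid. Pkm, the form of pyruvate kinase in other tissues, rose by 2.18 ± 0.65. Its call was lost without either GFP library or without IL-6 replicate 3, at log2 fold changes of 1.64 to 2.45 (adjusted p up to 0.182). In one-carbon and nucleotide metabolism 7 of 51 were higher (4 without GFP replicate 2) and 13 lower. The share higher, 13.7%, was that of all genes, and the share lower was 25.5%, against 12.2% of all genes. Uck2, a uridine kinase, rose by 2.26 ± 0.32.

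Genes for the cell surface, matrix and cytoskeleton rose in part. Of 79 collagens, laminins and secreted matrix proteins, 23 were higher (13 and 13) and 2 lower. Fn1, fibronectin, stood at 11761, 9432 and 10999 CPM with the IL-6 plasmid, against 1817 and 1537 CPM with the GFP plasmid. Timp1, an inhibitor of matrix proteases, had 1 count in the controls and stood at 34.2, 28.3 and 8.05 CPM with the IL-6 plasmid, a ratio of 686 (123 to 27100), and Mmp14, a membrane-bound matrix protease, stood at 152, 155 and 144 CPM with the IL-6 plasmid, against 17.7 and 15.4 CPM with the GFP plasmid. Of 34 integrins and matrix receptors, 12 were higher (7 and 6) and 1 lower, with Itga6, an integrin subunit that binds laminin, at 69.1, 48.1 and 46.6 CPM with the IL-6 plasmid, against 0.96 and 0.619 CPM with the GFP plasmid, and Ddr1, a collagen receptor, at 80.0, 69.1 and 41.7 CPM with the IL-6 plasmid, against 0.896 and 0.55 CPM with the GFP plasmid. The 10 stellate cell markers, of cells that also make matrix, had no called member and a median of 0.66. In a fit on the 5 libraries alone 1 was higher. The part of those cells in the matrix list was not tested.

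In the cytoskeleton 17 of 58 actin and myosin genes were higher (7 and 7) and 3 lower, and 16 of 57 tubulins, septins and kinesins (7 and 2, and 8 without IL-6 replicate 1 and 10 without replicate 2) with 1 lower. Tagln2, an actin-binding protein, stood at 117, 115 and 53.2 CPM with the IL-6 plasmid, against 4.29 and 6.88 CPM with the GFP plasmid, and Tubb6, a tubulin, at 82.5, 72.4 and 41.8 CPM with the IL-6 plasmid, against 6.15 and 7.15 CPM with the GFP plasmid. S100a11, a calcium-binding protein of epithelia, stood at 83.6, 102 and 57.8 CPM with the IL-6 plasmid, against 0.128 and 0.55 CPM with the GFP plasmid. Of 17 keratins and desmosomal genes 7 were higher (3 and 2) and 2 lower. Krt18 and Krt8, the keratin pair of hepatocytes, rose by 2.12 ± 0.34 and 1.26 ± 0.27, though Krt8 was not called without GFP replicate 2 (adjusted p = 0.0766). Of 35 junction genes 10 were higher (4 without GFP replicate 2) and 1 lower, including Cdhr2, a cadherin of intestinal microvilli, at 22.2, 21.7 and 11.5 CPM with the IL-6 plasmid, against 0.064 and 0.344 CPM with the GFP plasmid, and Cldn14, a claudin, at 78.3, 79.4 and 58.8 CPM with the IL-6 plasmid, against 16.1 and 17.6 CPM with the GFP plasmid.

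**Figure D5:**
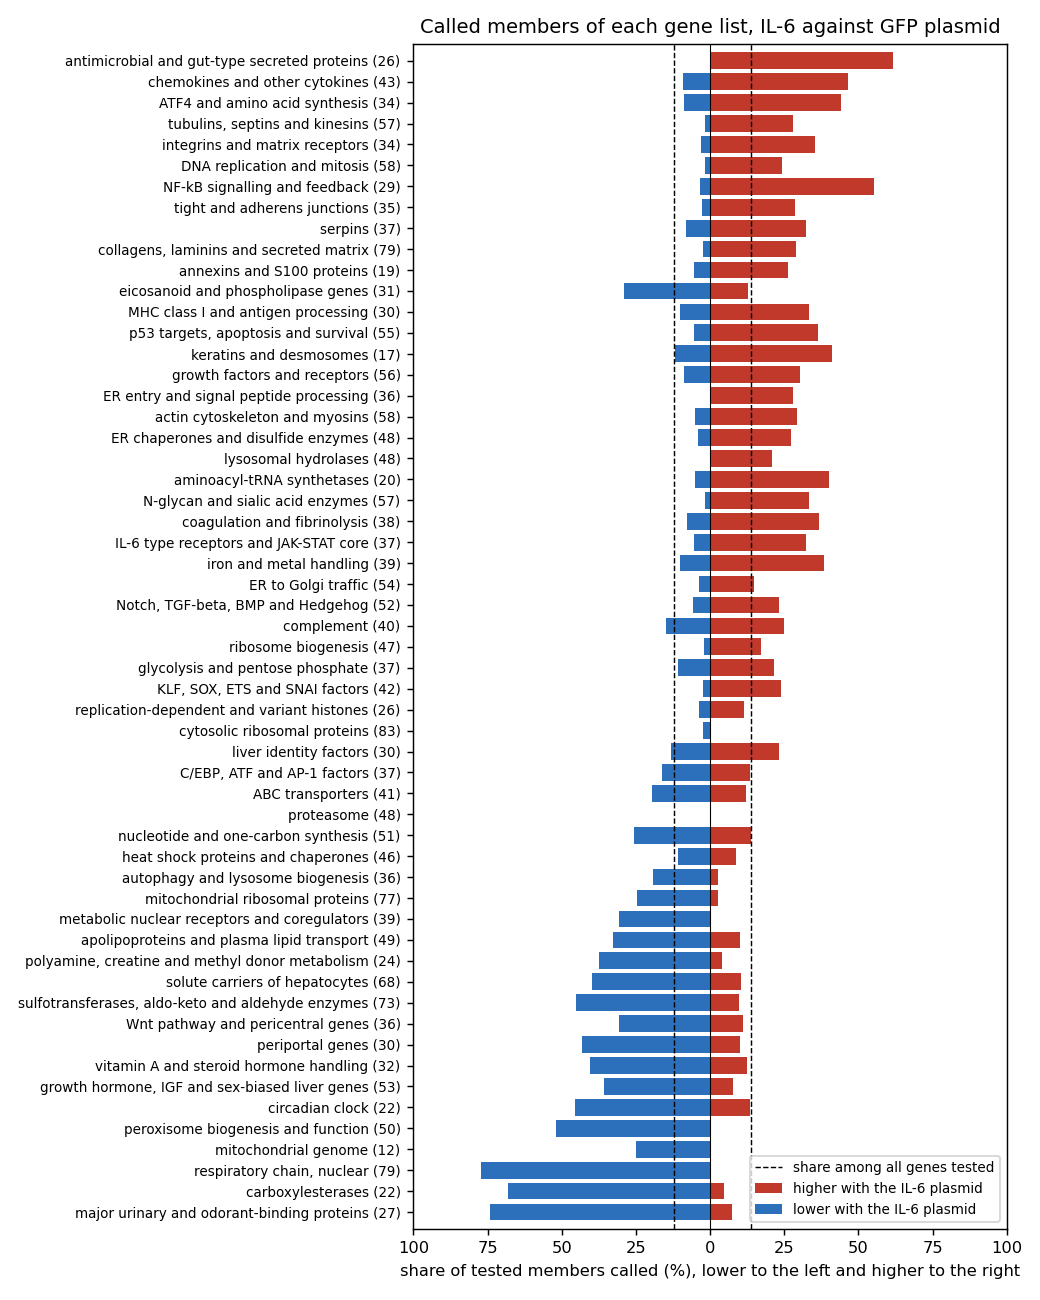
Share of the tested members of each list (%, number tested in brackets) called higher with the IL-6 plasmid (red, right) or lower (blue, left), in order of the list's median log2 fold change, with dashed lines at the shares of all genes, 13.7% and 12.2%. Major urinary proteins, carboxylesterases and the nuclear respiratory chain stand at the bottom and antimicrobial and cytokine genes at the top.

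Secreted signals changed along with the matrix. Of 43 chemokines and other cytokines, 20 were higher (12 and 9) and 4 lower. Il6, the gene the plasmid carries, is among the 20 and has the largest rise of the list (11.53), so its place there follows from the treatment. Cxcl14, a chemokine of epithelia, stood at 727, 546 and 211 CPM with the IL-6 plasmid, against 14.5 and 8.05 CPM with the GFP plasmid. Il1rn and Il18bp, natural antagonists of IL-1 and IL-18, rose to 27.9, 35.1 and 45.9 CPM with the IL-6 plasmid, against 1.22 and 2.68 CPM with the GFP plasmid, and to 58.9, 67.5 and 79.9 CPM with the IL-6 plasmid, against 3.2 and 4.33 CPM with the GFP plasmid. Cxcl14 was not called without GFP replicate 2 (adjusted p = 0.0641). Of 56 growth factors and receptors, 17 were higher (11 and 6) and 5 lower, led by Gas6, the ligand of TAM receptors, at 343, 326 and 454 CPM with the IL-6 plasmid, against 10.6 and 9.29 CPM with the GFP plasmid (5.24 ± 0.33, edgeR adjusted p = 4.87e-06). Fgfr1 and Pdgfc rose by 3.50 ± 0.61 and 3.38 ± 0.74. The call of Pdgfc was lost without GFP replicate 2 (3.02, adjusted p = 0.0731). In Notch, TGF-beta, BMP and Hedgehog signalling 12 of 52 were higher (5 and 5) and 3 lower. Hes1, a Notch target, rose by 2.55 ± 0.60 (not called without GFP replicate 1, adjusted p = 0.0859, or 2, adjusted p = 0.0604), and Smad9, a mediator of BMP signals, fell to 1.11, 1.6 and 1.19 CPM with the IL-6 plasmid, against 24.8 and 40.5 CPM with the GFP plasmid.

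The plasma cascades moved in part. Among complement genes the share higher was 25%, against 13.7% of all genes. Their share lower was 15%, near the 12.2% of all genes. Among coagulation genes 36.8% were higher and 7.89% lower. Of 40 complement genes 10 were higher (7 and 7) and 6 lower (3 and 2). C3, the central component, stood at 37340.5, 32166 and 38261 CPM with the IL-6 plasmid, against 8211 and 6940.2 CPM with the GFP plasmid, and the fluid phase inhibitor C4bp rose by 2.02 ± 0.29, while C8g, of the membrane attack complex, fell by 1.89 ± 0.27 (edgeR adjusted p = 0.000647 or less for these 3). Of 38 coagulation and fibrinolysis genes 14 were higher (9 and 9) and 3 lower. Klkb1, plasma prekallikrein, fell by 3.52 ± 0.33. In iron and metal handling 15 of 39 were higher (9 and 7) and 4 lower. Steap4, which reduces iron and copper, stood at 2063, 1978 and 1917 CPM with the IL-6 plasmid, against 79.5 and 119 CPM with the GFP plasmid, and Mt1, a metallothionein, at 1974, 2077 and 1572 CPM with the IL-6 plasmid, against 90.0 and 136 CPM with the GFP plasmid. Slc40a1, the iron exporter ferroportin, fell by 1.48 ± 0.27. Hamp, which encodes the hormone hepcidin that degrades it, was not called, at 802, 819.9 and 509 CPM with the IL-6 plasmid, against 1248 and 1220.2 CPM with the GFP plasmid (-0.80 ± 0.38, adjusted p = 0.146). In a fit on the 5 libraries alone it passed (adjusted p = 0.0496).

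Antimicrobial and gut-type secreted proteins were higher in 16 of 26 cases (5 and 5, and 10 without IL-6 replicate 2) and lower in none. The share higher was 61.5%, against 13.7% of all genes. Of the 26, 8 had no count in 1 of the groups, and a gene with none in the controls can only be called higher. With these 8 at their bound the median was 3.14, against 4.35 as fitted. Beside Reg3b, Reg3g and Lcn2 the members higher included Cxcl17, a mucosal chemokine. It stood at 19.1, 27.5 and 5.93 CPM with the IL-6 plasmid and had 1 count in the controls. Camp, a granule protein of neutrophils, had 41, 13 and 2 counts over IL-6 replicates 1 to 3, against 0 in the controls. It is also on the neutrophil list above, whose sum had the same order over the IL-6 libraries, and the part of those cells in this list was not tested.

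Some genes of cell death and division rose. Of 55 p53 targets, apoptosis and survival genes, 20 were higher (10 and 7) and 3 lower. Phlda3, a p53 target that restrains AKT, stood at 14.2, 11.7 and 8.42 CPM with the IL-6 plasmid, against 0.32 and 0.344 CPM with the GFP plasmid, and Cdkn1a, the cell cycle inhibitor p21, at 90.5, 44.4 and 85.9 CPM with the IL-6 plasmid, against 2.56 and 11.2 CPM with the GFP plasmid. The death receptors Tnfrsf10b and Tnfrsf12a rose by 3.56 ± 0.60 and 3.19 ± 0.36. Of 58 genes of DNA replication and mitosis, 14 were higher and 1 lower, but none was higher without either GFP library, 3 and 6 without IL-6 replicates 1 and 2, and 22 without IL-6 replicate 3. With library totals alone 7 of the list were higher. Mki67, a marker of cycling cells, stood at 79.4, 39.1 and 18.7 CPM with the IL-6 plasmid, against 2.56 and 5.02 CPM with the GFP plasmid, with replicate 3 lowest of the IL-6 libraries. The call of Mki67 was lost without IL-6 replicate 1 or 2 (edgeR adjusted p = 0.101 and 0.0636) and with library totals alone (adjusted p = 0.0506). The gene that went the other way, Mcm10, an initiation factor of replication, stood at 11, 8.2 and 15.2 CPM with the IL-6 plasmid, against 140.0 and 219 CPM with the GFP plasmid (-3.97 ± 0.38, edgeR adjusted p = 4.03e-05).

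Many genes did not move far. For 4791 genes (33.4% of those tested) the 95% interval of the log2 fold change lay within -1 to 1, and 130 of them were called. Among the most narrowly bounded were Mttp, which loads lipid onto apolipoprotein B, at 332, 262 and 319 CPM with the IL-6 plasmid, against 325 and 288 CPM with the GFP plasmid (-0.01 ± 0.20, 95% interval -0.45 to 0.43), Ywhae, a 14-3-3 protein, at 219, 228 and 215 CPM with the IL-6 plasmid, against 207 and 208 CPM with the GFP plasmid (0.09 ± 0.18, -0.30 to 0.48), and Eif5a, a translation factor, at 310.2, 315 and 283 CPM with the IL-6 plasmid, against 327 and 307 CPM with the GFP plasmid (-0.07 ± 0.20, -0.50 to 0.36). The IL-6 and GFP libraries of these genes overlapped in Mttp and Eif5a, and lay close together in Ywhae.

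Counting limits bear on some genes above. The kit named in the labels and the count table do not state whether reads were counted by strand, and more than 10% of the exonic bases of Spp1, Dbp, Acaa1b, Retsat, Pkm, Nr1i3, Notum, Pklr, Cyp2f2 and Gabarapl1 are shared with other annotated genes, so their counts may be too low or include reads of a neighbour.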

How the data were processed

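The authors deposited a table of raw counts per gene for 13 hepatocyte libraries, of which 5 are compared here. The submitters' processing notes name STAR, the build mm10, HTSeq and DESeq2, with no version stated. Cells were sorted, and a TruSeq RNA kit was used on Trizol-extracted RNA, per the labels' protocols. Whether reads were counted by strand or at several loci is not given, which bears on overlapping genes and close relatives.

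All 13 libraries were fitted with edgeR 4.0.16 (R 4.3.3, limma 3.58.1): filterByExpr, TMM scaling, 1 term per group, a quasi-likelihood test of IL-6 minus GFP and Benjamini-Hochberg adjustment over the 14339 genes tested, called at 0.05. The 8 other libraries enter the filter, the scaling and the estimate of spread. The EGFP row was left out of library sizes and tests. SE values come from the F statistic. The procedure was tested on simulated data. Alternatives were other scalings, no filter, DESeq2 1.42.0, a replicate block, the 5 libraries alone and leaving out each library.

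Members, gene lists and the rule for named genes were chosen with earlier results of these data known. The rule named the largest called changes in fold and in CPM, up to 6 called members of each list, the most narrowly bounded genes and those where IL-6 replicate 3 stood apart. Genes outside it, named after their values were seen, are Camp, Cd14, Epcam, Ghr, Gucy2c, Hamp, Hnf4a, Hspa5, Igf1, Npas2, Nr1d1, Ptprc and Slc40a1. Genes were placed with GENCODE M21 on GRCm38.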

Additional observations from a re-analysis of the deposited data

Results flagged for a closer look

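The EGFP row, a sequence outside the mouse genes, stood above its level in the GFP plasmid libraries in every IL-6 plasmid library. It reached 9.236, 5.733 and 486.3 CPM in IL-6 replicates 1, 2 and 3, against 2.177 and 2.408 CPM in GFP replicates 1 and 2. These values drew attention because the row belongs to no comparison and was higher outside the group named for GFP. Among these 5 libraries the one with the most EGFP also held the most Il6, at 4.89, 3.21 and 351 CPM in IL-6 replicates 1 to 3. The cause was not tested.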

How the results depend on the processing

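Of the genes named here and called, none changed direction under any alternative tried. By library totals alone 2661 genes were lower, against 1755 with TMM scaling. Leaving out 1 library at a time gave 755 to 1811 genes higher and 896 to 1639 lower, with the low ends without a GFP library. DESeq2 called 2406 higher and 1971 lower, and a fit on the 5 libraries 2339 and 2053. Of the reported calls, 1577 higher and 1228 lower had a fold change over 1 on the log2 scale. That is a cut on the estimate, and no fold change was tested against 1. Median-of-ratios factors, upper-quartile factors, no filter and leaving out mitochondrial genes each stayed within 1.5 times both counts. Whether replicate numbers pair the samples is not settled here. Same-numbered IL-6 and GFP libraries had deviations from their group means correlated at r = -0.0145 and 0.0834 over genes. With 2 GFP libraries the deviations of GFP replicate 1 are the negative of those of GFP replicate 2. These correlations therefore cannot decide the question. With the replicate block 2221 genes were higher and 1879 lower, and Glul and Retsat passed the threshold (adjusted p = 0.0348 and 0.0172). Genes not called that changed sign were Hnf4a, at -0.10 by library totals, -0.0405 with the replicate block and -0.0263 to 0.2864 with 1 library left out, Mttp, at 0.0465 with upper-quartile factors and -0.0912 to 0.0957 with 1 library left out, Alb, at -1.49 to 0.0570 with 1 library left out, and Ywhae, at -0.14 by library totals. With 2 controls, a gene with no count in either is known only to lie under 3 counts over both.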

Other observations

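Further lists held called genes in both directions, beside 13.7% higher and 12.2% lower among all genes. Of 31 eicosanoid and phospholipase genes 9 were lower and 4 higher (1 and 0 higher without GFP replicates 1 and 2, and 0 and 1 without IL-6 replicates 1 and 2). Hpgd, which inactivates prostaglandins, stood at 15.4, 18.3 and 25 CPM with the IL-6 plasmid, against 149 and 137 CPM with the GFP plasmid (-2.87 ± 0.31, edgeR adjusted p = 8.28e-05), and Cyp4f14, which degrades leukotriene B4, stood at 56.5, 34.6 and 32.3 CPM with the IL-6 plasmid, against 344 and 269.7 CPM with the GFP plasmid. No IL-6 library reached a control in either gene. Of 41 ABC transporters 8 were lower (19.5%) and 5 higher (12.2%), with a median of -0.04 (2 and 0 higher without GFP replicates 1 and 2, and 3 without IL-6 replicate 1). The members lower included Abcg5 and Abcg8, which together export sterols into bile, with log2 fold changes of -1.51 ± 0.30 and -2.48 ± 0.45, and Abcc2, which exports conjugated bilirubin, with -1.49 ± 0.28.

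Of 30 genes of MHC class I and antigen processing 10 were higher (4 without GFP replicate 2) and 3 lower. H2-Q7, a nonclassical class I molecule, stood at 180.2, 197 and 97.1 CPM with the IL-6 plasmid, against 26.1 and 34.7 CPM with the GFP plasmid (2.38 ± 0.42, edgeR adjusted p = 0.0017). Reads of the H2-Q genes may have been split among close relatives. Of 37 serpins 12 were higher (7 without GFP replicate 2) and 3 lower, and Serping1, the inhibitor of complement C1 esterase, stood at 3112, 2653 and 2368 CPM with the IL-6 plasmid, against 698 and 629.8 CPM with the GFP plasmid. In polyamine, creatine and methyl donor metabolism 9 of 24 genes were lower (6 without GFP replicate 2) and 1 higher. Cth, which makes cysteine, stood at 139, 148 and 116 CPM with the IL-6 plasmid, against 498 and 561 CPM with the GFP plasmid, and all IL-6 libraries lay below the controls.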
